A study of Mus musculus with 17 samples.

Results

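The regions described here were the ATAC-seq regions of 7 genes for costimulatory and activation proteins of the B cell surface, Cd80, Cd86, Icosl, Cd274, Pdcd1lg2, Cd83 and Cd69. The 7 genes were chosen with earlier results of these data known. A region was a member when the deposited annotation named any of these genes as its transcript or as owner of its nearest transcription start. No measured value entered that rule for regions. This gave 79 of 66177 regions, 7 for Cd80, 15 for Cd86, 9 for Icosl, 8 for Cd274, 13 for Pdcd1lg2, 19 for Cd83 and 8 for Cd69. ATAC-seq marks open chromatin with a transposase, and each value is the reads in a region scaled to 1000000 of the reads that the library has in regions (RPPM). The mouse line combined the floxed alleles Dnmt3atm3.1Enl and Dnmt3btm5.1Enl on a B6;129S4 background (Mmnc), as the labels name them. The methods of the study give another number for the Dnmt3a allele. All mice were from 8 to 12 weeks old. All carried these alleles on both chromosomes (Dnmt3a fl/fl and Dnmt3b fl/fl). Knockout mice (KO) also carried 1 copy of a Cre allele active in the B lineage, and controls (C) were mice without Cre. Naive B cells (nB) were sorted from lymph nodes of unimmunized male mice as B220+ GL7- Fas-, with 3 C and 2 KO libraries of 1 mouse each. Germinal center B cells (GCB) were PE-specific B220+ GL7+ Fas+ lymph node cells taken 30 days after immunization with phycoerythrin (PE) in adjuvant, as pools of 2 mice. The 2 C pools were F2 (female) and M1 (male), and the 4 KO pools were F1, F2 and F3 (female) and M1 (male). Bone marrow plasma cells (BMPC) were CD138+ cells of female mice at the same day, with 3 C and 2 KO libraries, and a further KO BMPC sample was not analysed here. The genotype was taken from the labels, and recombination was not checked in these values. The nB were from unimmunized male mice, and the BMPC from immunized female mice and another tissue. Cell type, sex, tissue and immunization thus cannot be told apart between them, nor can cell type and tissue between GCB and BMPC. Between nB and GCB, cell type cannot be told apart from immunization or from the pooling of mice, and most GCB pools were female. The spread between libraries here is that between mice or pools.

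CD80 and CD86 are the B7 ligands with which an antigen-presenting B cell gives the second signal to CD28 on a T cell, and both also bind the inhibitory receptor CTLA-4. ICOSL binds ICOS on T follicular helper cells, and PD-L1 (Cd274) and PD-L2 (Pdcd1lg2) bind the inhibitory receptor PD-1, which these helper cells carry in germinal centers. CD83 is a surface marker of activated B cells and light zone germinal center cells, and CD69 is an early activation antigen that holds back exit from lymphoid tissue by pairing with the S1P receptor S1PR1. Plasma cells secrete antibody and have largely given up antigen presentation.

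Depth set the precision of these values. The nB libraries held 4104875 to 6079018 reads in regions, the GCB libraries 907959 to 2280954 and the BMPC libraries 5357687 to 8232313, so a floor of 3 reads stood at between 0.494 and 0.731 RPPM in nB, between 1.32 and 3.30 RPPM in GCB and between 0.364 and 0.560 RPPM in BMPC. Floors cover counting error only, as the reads carry no molecular identifiers. At the starts of 4 B cell markers (Ms4a1, Fcer2a, Cr2 and Pax5) the nB libraries summed to 205 to 221 RPPM, the GCB libraries to 105 to 168 RPPM and the BMPC libraries to 41.1 to 45.7 RPPM. The starts of 4 germinal center markers (Bcl6, S1pr2, Mybl1 and Fas) did not set GCB apart in sum, at 120 to 161 RPPM against 146 to 165 RPPM in nB and 175 to 192 RPPM in BMPC. For the plasma cell markers, 4 of 5 had a region (Prdm1, Xbp1, Irf4 and Tnfrsf17), and Sdc1 had none within 1000 bp of its start. Their sum was from 196 to 214 RPPM in BMPC and from 105 to 175 RPPM elsewhere. In mean, Prdm1, Xbp1 and Tnfrsf17 were higher in BMPC than nB. The Irf4 start was lower, at 44.1 against 57.4 RPPM in C and 39.4 against 58.4 RPPM in KO. No region lay at the start of any of 5 T cell markers, and 1 of 5 myeloid markers (Itgam) had a region, at no more than 5.31 RPPM in any library.

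The sequence of 7 regions is shown as examples of start, intron and distal regions that were called between cell types in C and are described with their values. Some regions not shown changed more. Each is a stretch of 240 bases of the plus strand of NCBIM37 (mm9), the build of the deposited regions, cut from the part of the region outside GENCODE exons where most motif matches fell. Capitals mark matches on either strand to the letters searched, which were CAGCTG (E2A), GGAAGT (PU.1), GGAANNGAA (the PU.1-IRF composite), TGANTCA (AP-1), GGGANTTTC (NF-kB), ATGCAAAT (Oct-2) and TGTGGT (RUNX). Matches to the PU.1 letters can overlap those of the composite. The Cd86 stretches lie in its introns at chr16:36642926-36643165 and chr16:36656054-36656293, the Cd80 stretch just upstream of its start at chr16:38458750-38458989, and the Pdcd1lg2 stretch in its start region at chr19:29496537-29496776. The Cd83 stretches lie in an intron at chr13:43884525-43884764 and far downstream at chr13:43993893-43994132, and the Cd69 stretch past the 3′ end of that gene at chr6:129216013-129216252.
Cd86 intron at 23 kb: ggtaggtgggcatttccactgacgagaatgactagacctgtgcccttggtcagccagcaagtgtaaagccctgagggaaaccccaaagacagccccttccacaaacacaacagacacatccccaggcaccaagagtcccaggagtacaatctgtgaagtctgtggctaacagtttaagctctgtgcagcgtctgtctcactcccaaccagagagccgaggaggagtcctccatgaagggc
Cd86 intron at 9.8 kb: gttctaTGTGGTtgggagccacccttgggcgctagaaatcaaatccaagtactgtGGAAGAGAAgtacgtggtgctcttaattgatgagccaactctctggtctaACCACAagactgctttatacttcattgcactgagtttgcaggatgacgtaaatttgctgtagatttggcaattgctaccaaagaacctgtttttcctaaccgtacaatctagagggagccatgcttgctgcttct
Cd80 start: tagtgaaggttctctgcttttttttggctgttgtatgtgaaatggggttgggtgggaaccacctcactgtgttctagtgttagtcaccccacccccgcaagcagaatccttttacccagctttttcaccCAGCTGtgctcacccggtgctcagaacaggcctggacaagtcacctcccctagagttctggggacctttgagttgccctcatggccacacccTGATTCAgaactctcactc
Pdcd1lg2 start: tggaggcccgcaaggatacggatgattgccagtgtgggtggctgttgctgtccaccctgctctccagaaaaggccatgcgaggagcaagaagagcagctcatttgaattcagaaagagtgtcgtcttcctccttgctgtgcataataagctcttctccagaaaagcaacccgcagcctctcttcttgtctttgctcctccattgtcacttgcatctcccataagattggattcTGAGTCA
Cd83 intron at 3.6 kb: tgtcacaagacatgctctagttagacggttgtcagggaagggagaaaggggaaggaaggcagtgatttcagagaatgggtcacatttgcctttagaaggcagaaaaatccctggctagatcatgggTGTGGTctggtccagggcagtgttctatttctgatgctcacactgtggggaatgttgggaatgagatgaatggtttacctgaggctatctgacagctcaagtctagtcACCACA
Cd83 side at 113 kb: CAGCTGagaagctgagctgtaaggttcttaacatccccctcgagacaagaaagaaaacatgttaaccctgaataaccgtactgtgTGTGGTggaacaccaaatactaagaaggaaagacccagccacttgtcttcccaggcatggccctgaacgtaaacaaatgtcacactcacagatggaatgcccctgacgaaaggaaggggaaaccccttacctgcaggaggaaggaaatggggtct
Cd69 3′ flank: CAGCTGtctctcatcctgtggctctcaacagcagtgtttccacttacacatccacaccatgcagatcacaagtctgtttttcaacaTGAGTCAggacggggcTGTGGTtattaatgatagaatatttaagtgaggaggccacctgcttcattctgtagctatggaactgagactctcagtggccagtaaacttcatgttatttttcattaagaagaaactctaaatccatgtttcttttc

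Across all members, a window of 200 bases at the center of the region held the E2A letters in 8 of 79 (10.1%, against 14.9% of 65893 regions on named chromosomes), the PU.1 letters in 18 (22.8% against 23.0%) and the composite in 4 (5.06% against 8.38%). The AP-1 letters stood in 8 (10.1% against 6.30%), those of NF-kB in 2 (2.53% against 1.13%), of Oct-2 in 4 (5.06% against 2.92%) and of RUNX in 15 (19.0% against 17.7%). Of the 14 members more accessible in C GCB than in C nB, 5 held the RUNX letters (35.7%), 3 each those of E2A, the composite and Oct-2, 1 each those of PU.1 and AP-1, and 0 those of NF-kB. Of the 9 less accessible, 3 held the RUNX letters (33.3%) and 2 those of PU.1. The letters of E2A, the composite and AP-1 stood in 1 each, and those of NF-kB and Oct-2 in 0. The median window of the members had 47.5% G or C and 3 CpG, and that of all regions 50.0% and 3. These shares are a description of letters and say nothing of binding.

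Member regions were mostly distal: 11 were annotated as promoter, 29 as intron, 5 as exon and 34 as outside genes, and their median width was 485 bp (510 bp for all regions). Differences between groups were tested by limma on the log2(RPPM + 1) scale, with p-values adjusted over all 66177 regions, and a call required both an adjusted p no higher than 0.01 and 2-fold or more in size. From nB to GCB in C, 14 of 79 members were more accessible (14.2% of all regions were) and 9 less accessible (8.47%). Quantile normalization, which moved the median of all regions down by 0.11 on the log2 scale, turned this split to 12 and 16 (11.2% and 10.7% of all regions). Without the second C GCB pool, 12 were more and 5 less accessible. Between nB and BMPC in C, 13 members gained accessibility (18.0% of all regions) and 27 lost it (20.1%), and between GCB and BMPC in C, 8 gained (11.3%) and 21 lost (19.1%). The median log2 fold changes of the members were -0.29, -0.35 and -0.18 in these 3 comparisons, against 0.05, 0.03 and -0.06 for all regions. The losses fell mainly on Cd83, with 14 of its 19 regions less accessible in BMPC than in nB, and on Cd86, with 7 of 15. The first and second comparisons share the nB libraries, and each is given with its own values.

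**Figure D1:**
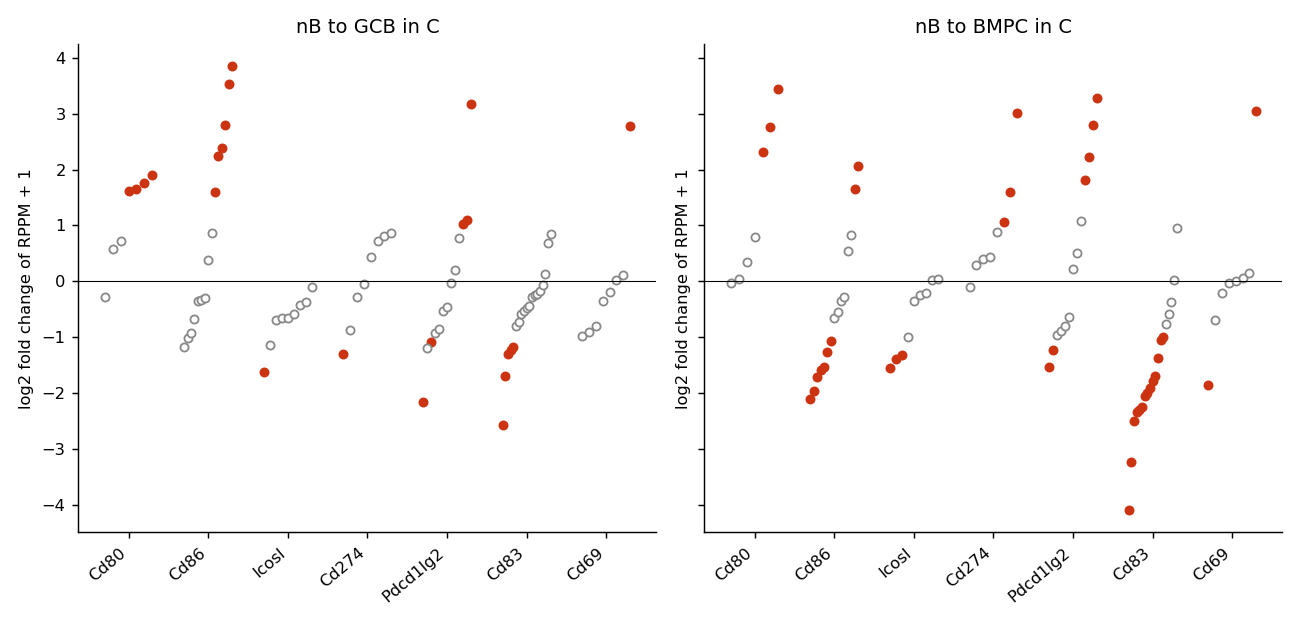
Log2 fold change of RPPM + 1 (vertical axis) for each of the 79 regions by gene (horizontal axis), from nB to GCB (left) and from nB to BMPC (right) in C. Filled points passed the limits for a call and open points did not; 14 regions were called higher and 9 lower on the left, and 13 higher and 27 lower on the right.

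The B7 ligand Cd80 gained accessibility in both activated cell types. Its start region (chr16:38458728-38459281), which contains GENCODE starts of the gene, read 3.17, 2.26 and 2.42 RPPM in the 3 C nB libraries, 11.4 and 13.6 RPPM in the 2 C GCB pools and 21.2, 24.3 and 24.9 RPPM in the 3 C BMPC libraries. The 3 cell types did not overlap, and the order was nB, GCB, BMPC. The log2 fold change from nB was 1.91 ± 0.25 (SE, adjusted p = 6.0e-07, limma) in GCB and 2.76 ± 0.22 (adjusted p = 2.7e-11) in BMPC, and from GCB to BMPC it was 0.86 ± 0.25 (adjusted p = 0.0051), under the 2-fold limit. The KO libraries read 1.81 and 1.97 RPPM in nB, from 7.0 to 13.2 RPPM in GCB and 24.2 and 18.1 RPPM in BMPC, in the same order. Of the 7 Cd80 regions, 4 were called more accessible in GCB than nB (57.1%, against 14.2% of all regions). In BMPC 3 were more accessible than in nB (42.9%, against 18.0% of all regions). None was less accessible in either (8.47% and 20.1% of all regions were). The Cd80 intron at 12.8 kb from the start stood near the floor in C nB, at 0.456 ± 0.265 RPPM (SD, n = 3), and reached 3.87 ± 0.493 RPPM (SD, n = 2) in GCB and 14.7 ± 1.69 RPPM (SD, n = 3) in BMPC. By contrast, the promoter region 1.5 kb before the GENCODE start was open mainly in GCB, at 20.0 ± 0.247 RPPM (SD, n = 2) against 5.76 ± 1.07 RPPM (SD, n = 3) in nB and 7.53 ± 0.247 RPPM (SD, n = 3) in BMPC. The highest Cd80 region, an intron at 2.6 kb, measured from 19.9 to 45.3 RPPM over the C libraries and passed no comparison in C at the 2-fold limit.

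Cd86 showed another arrangement, in which the start region and the introns changed separately. The start region (chr16:36665849-36666322) read 24.8, 23.0 and 26.6 RPPM in C nB, 21.1 and 17.3 RPPM in C GCB and 8.58, 6.75 and 7.47 RPPM in C BMPC. The 3 cell types did not overlap, but only the step to BMPC passed the limits. The log2 change from nB to BMPC was -1.59 ± 0.18 (SE, adjusted p = 2.8e-08, limma), and from nB to GCB it was -0.36 ± 0.21 (adjusted p = 0.17). The introns opened in GCB. At 23 kb from the start, the region chr16:36642380-36643199 read 3.41, 4.90 and 4.65 RPPM in C nB, 53.2 and 67.5 RPPM in C GCB and 6.76, 5.11 and 8.56 RPPM in C BMPC, so that both GCB pools stood far above the rest. The change from nB to GCB was 3.53 ± 0.23 (SE, adjusted p = 1.8e-12, limma) and from GCB to BMPC -2.99 ± 0.23 (adjusted p = 1.9e-11). GENCODE places the start of a shorter protein-coding Cd86 transcript inside this region, at base 36642891 of chromosome 16, whereas the deposited annotation takes it as intronic.

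The highest Cd86 region, also intronic and 30 kb from the start (chr16:36634971-36636091), measured 16.3, 21.3 and 22.3 RPPM in C nB, 90.2 and 104 RPPM in C GCB and 8.45, 7.30 and 11.2 RPPM in C BMPC. It rose 4.86-fold in mean from nB to GCB (log2 change on the RPPM + 1 scale 2.23 ± 0.21, adjusted p = 1.8e-09, limma) and in BMPC it lay below nB, with a log2 change of -1.08 ± 0.18 (adjusted p = 1.4e-05). In KO the same region read from 59.5 to 83.4 RPPM in GCB, 23.4 and 26.0 RPPM in nB and 12.3 and 6.53 RPPM in BMPC. Further Cd86 introns at 24.4, 14.5 and 9.8 kb read 21.3, 18.1 and 14.8 RPPM in mean in C GCB, against 0.574, 1.81 and 4.24 RPPM in C nB. The intron at 9.8 kb (chr16:36655964-36656384) then dropped to 1.04, 0.182 and 0.623 RPPM in C BMPC, a log2 change of -3.32 ± 0.29 from GCB (adjusted p = 3.2e-10, limma). Not all introns returned to the nB level. The intron at 24.4 kb kept 3.86 RPPM in mean in C BMPC, a log2 change of 1.65 ± 0.28 from nB (adjusted p = 1.3e-05, limma). An intron at 37.9 kb read 1.38, 11.7 and 8.91 RPPM in mean in C nB, GCB and BMPC, with 2.06 ± 0.27 from nB to BMPC (adjusted p = 3.0e-07, limma). Altogether 6 of 15 Cd86 regions were called more accessible in GCB than nB (40.0%, against 14.2% of all regions) and none less (against 8.47%). From GCB to BMPC 7 were less accessible (46.7%, against 19.1% of all regions) and none more (against 11.3%). From nB to BMPC in C, 2 were called more accessible (13.3%, against 18.0% of all regions) and 7 less (46.7% against 20.1%). Upstream of the start, 3 regions at 3.4, 8.4 and 9.3 kb read 6.82, 14.1 and 4.94 RPPM in C nB and 0.807, 2.83 and 1.05 RPPM in C BMPC, each called lower.

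**Figure D2:**
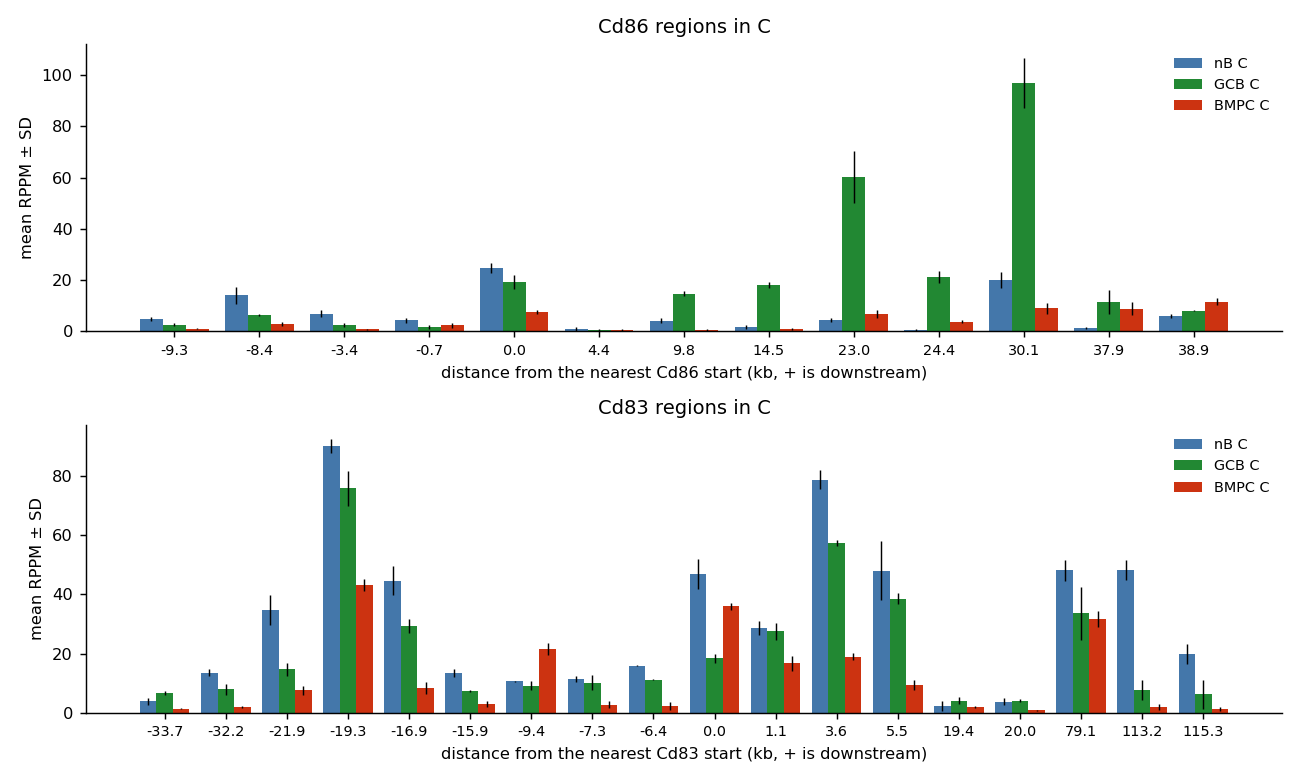
Mean RPPM ± SD (vertical axis) of the Cd86 (top) and Cd83 (bottom) regions whose nearest start is that gene, in order of distance from the start in kb (horizontal axis, equally spaced), in the C libraries of nB (n = 3), GCB (n = 2) and BMPC (n = 3). At Cd86 the introns at 23 and 30 kb reached 60.3 and 97.1 RPPM in GCB; at Cd83 most regions fell from nB to BMPC.

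The calls of Icosl in C were all to lower accessibility. The start region (chr10:77531793-77532857) read 42.6, 45.4 and 44.9 RPPM in C nB, 26.4 and 29.0 RPPM in C GCB and 41.7, 46.5 and 47.2 RPPM in C BMPC. Both GCB pools lay below every nB and BMPC library, but the log2 change of -0.66 ± 0.16 from nB (SE, adjusted p = 0.0014, limma) was under the 2-fold limit, and BMPC differed from nB by 0.03 ± 0.14 (adjusted p = 0.89). The highest Icosl region, outside genes at 16.9 kb downstream (chr10:77549054-77550467), was at 66.0 and 67.5 RPPM in C GCB, from 86.8 to 94.8 RPPM in C nB and from 88.4 to 98.4 RPPM in C BMPC. At 20.8 kb (chr10:77552961-77553327), the level stepped down from 23.6 ± 1.09 RPPM (SD, n = 3) in nB to 15.4 ± 0.597 RPPM (SD, n = 2) in GCB and 7.46 ± 1.0 RPPM (SD, n = 3) in BMPC, with a log2 change of -1.54 ± 0.17 from nB to BMPC (adjusted p = 1.2e-08, limma). In all, 1 of 9 Icosl regions was called lower in GCB than nB (11.1%, against 8.47% of all regions). In BMPC 3 were lower than nB (33.3%, against 20.1% of all regions), and none was called higher in either. The region called lower in GCB, an exon 5.6 kb from the start, rested on 1 read in each C GCB pool and from 3.20 to 3.90 RPPM in C nB.

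Of the PD-1 ligands, Pdcd1lg2 had the strongest change at a start region. This region (chr19:29496364-29497379) read 1.95, 0.942 and 1.12 RPPM in C nB, 17.6 and 22.0 RPPM in C GCB and 21.1, 24.6 and 19.0 RPPM in C BMPC. All GCB and BMPC libraries were above all nB libraries, while GCB and BMPC overlapped. The log2 changes from nB were 3.17 ± 0.23 (SE, adjusted p = 2.1e-11, limma) in GCB and 3.29 ± 0.21 (adjusted p = 2.2e-13) in BMPC, with 0.12 ± 0.23 between GCB and BMPC (adjusted p = 0.70). In KO the region stood at 2.30 and 1.77 RPPM in nB, between 20.4 and 27.6 RPPM in GCB and at 16.2 and 15.3 RPPM in BMPC. The deposited annotation puts a Pdcd1lg2 start in this region, whereas the only start that GENCODE lists is 11 kb upstream, and the region overlaps a GENCODE exon. Other Pdcd1lg2 regions went both ways. An exonic region 32.0 kb from the start dropped from 28.9 ± 1.45 RPPM (SD, n = 3) in C nB to 5.68 ± 0.574 RPPM (SD, n = 2) in GCB and 9.34 ± 0.992 RPPM (SD, n = 3) in BMPC, and the highest region, an intron at 8.4 kb, stayed between 22.0 and 40.1 RPPM in the C libraries. The calls over 13 regions, each against nB, were 3 higher and 2 lower in GCB (23.1% and 15.4%, against 14.2% and 8.47% of all regions). In BMPC they were 4 higher and 2 lower (30.8% and 15.4%, against 18.0% and 20.1% of all regions).

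Cd274 was open at its start in every cell type. The start region (chr19:29441491-29442154) read 33.1, 32.4 and 28.1 RPPM in C nB, 31.7 and 28.6 RPPM in C GCB and 46.4, 43.1 and 38.6 RPPM in C BMPC. BMPC was above the others without overlap, yet the log2 change of 0.44 ± 0.15 from nB (SE, adjusted p = 0.015, limma) did not pass the limits, and nB and GCB were not distinguished (-0.05 ± 0.17, adjusted p = 0.84). The gain in BMPC lay in the gene body. An intron at 7.5 kb (chr19:29449453-29449831) read 0.00, 1.13 and 0.558 RPPM in C nB, 3.08 and 0.468 RPPM in C GCB and 9.49, 14.6 and 9.5 RPPM in C BMPC, with a log2 change of 3.01 ± 0.36 from nB to BMPC (adjusted p = 5.1e-08, limma). The intron at 1.2 kb (chr19:29443170-29443508) measured 8.18 ± 0.974 RPPM (SD, n = 3) in nB, 4.06 ± 1.1 RPPM (SD, n = 2) in GCB and 18.2 ± 1.90 RPPM (SD, n = 3) in BMPC, a log2 change of 1.94 ± 0.24 between GCB and BMPC (adjusted p = 1.9e-07, limma). Against nB, 3 of 8 Cd274 regions were more accessible in BMPC (37.5%, against 18.0% of all regions) and none less. In GCB 1 was less accessible than in nB (12.5%, against 8.47% of all regions) and none more. The GCB call was an intron at 4.6 kb with 3.56 ± 0.505 RPPM (SD, n = 3) in C nB and 3 reads or fewer in each C GCB pool, and leaving out the second C GCB pool took it to -0.97 (adjusted p = 0.052, limma), so it rests on few reads.

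**Figure D3:**
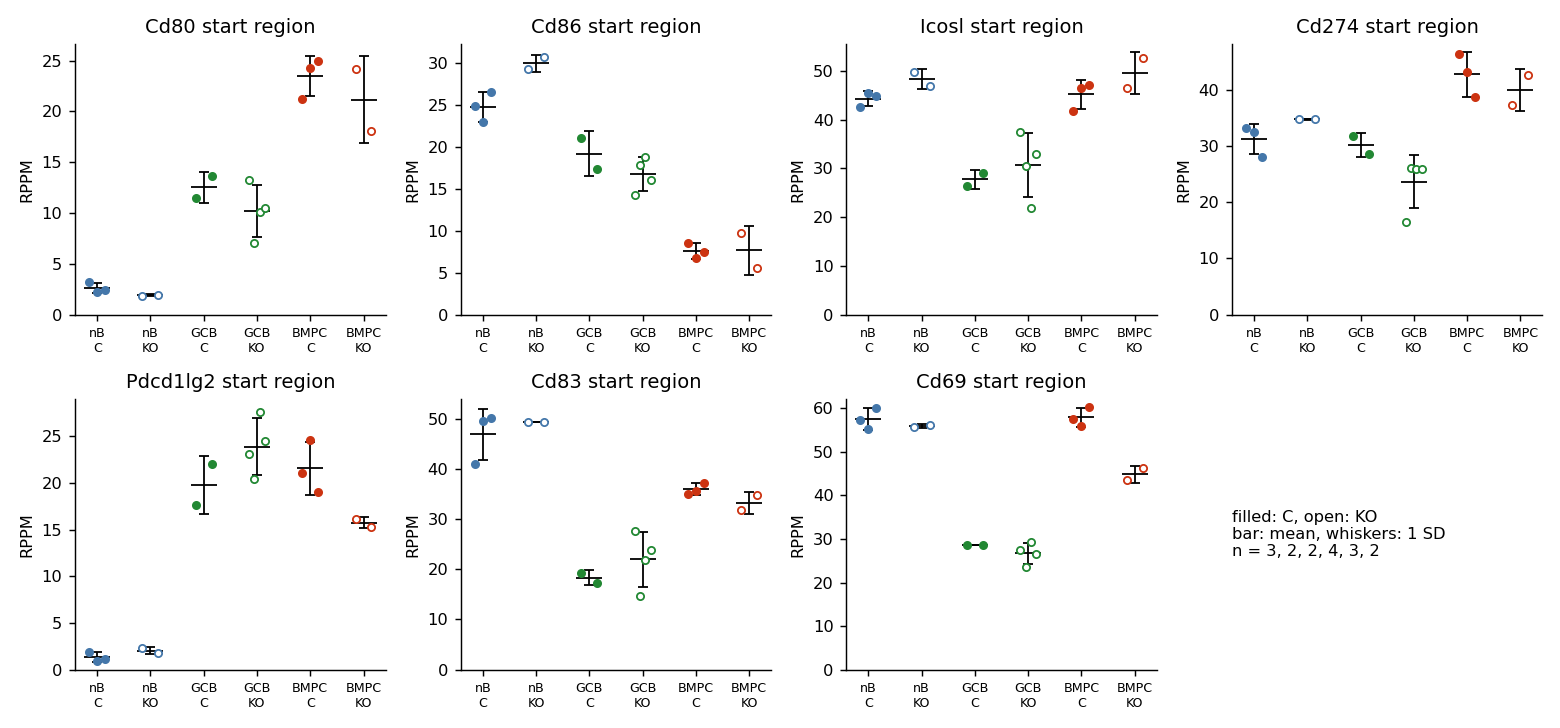
RPPM (vertical axis) at the start region of each of the 7 genes in the 16 libraries, by cell type and genotype (horizontal axis; filled points C, open points KO, bar the mean, whiskers 1 SD). Cd80 and Pdcd1lg2 were low in nB and higher in GCB and BMPC, Cd86 was lowest in BMPC, and Icosl, Cd83 and Cd69 were lowest in GCB.

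Cd83 had the broadest loss of accessibility in plasma cells. Of its 19 regions, 14 were called less accessible in BMPC than in nB (73.7%, against 20.1% of all regions) and none more (against 18.0%). Between GCB and BMPC, 11 were less accessible in BMPC (57.9% against 19.1%) and 1 more (5.26% against 11.3%). From nB to GCB, 5 regions fell (26.3% against 8.47%) and none rose (against 14.2%). An intron 3.6 kb from the start (chr13:43884188-43884857) read 75.0, 80.1 and 81.0 RPPM in C nB, 58.1 and 56.7 RPPM in C GCB and 19.9, 17.5 and 19.3 RPPM in C BMPC. Its log2 change from nB to BMPC was -2.0 ± 0.11 (SE, adjusted p = 2.9e-14, limma), and the smaller step to GCB, -0.45 ± 0.13 (adjusted p = 0.0056), did not reach 2-fold. The highest Cd83 region, 19.3 kb upstream (chr13:43860315-43861171), lay between 87.4 and 91.9 RPPM in C nB and between 40.9 and 45.0 RPPM in C BMPC. Far downstream, 113 kb from the start and 95257 bp past the transcript end (chr13:43993759-43994494), a region that the annotation assigns to Cd83 read 51.2, 44.5 and 48.8 RPPM in C nB, 10.1 and 5.15 RPPM in C GCB and 2.86, 0.912 and 2.18 RPPM in C BMPC. Among the members this was the largest loss from nB to either cell type in C, with log2 changes of -2.57 ± 0.28 from nB to GCB (adjusted p = 2.8e-08, limma) and -4.10 ± 0.25 from nB to BMPC (adjusted p = 9.9e-14). Whether the region acts on Cd83 cannot be read from its distance.

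The Cd83 start region (chr13:43880184-43880848) behaved differently from its flanks. It read 40.9, 49.5 and 50.1 RPPM in C nB, 19.4 and 17.3 RPPM in C GCB and 35.0, 35.6 and 37.2 RPPM in C BMPC, so that GCB and not BMPC was lowest. Between nB and GCB the log2 change was -1.30 ± 0.18 (SE, adjusted p = 1.3e-06, limma) and between nB and BMPC -0.37 ± 0.16 (adjusted p = 0.051). A region 9.4 kb upstream was the only Cd83 region called higher from GCB to BMPC, at 10.6 ± 0.177 RPPM (SD, n = 3) in nB, 9.04 ± 1.52 RPPM (SD, n = 2) in GCB and 21.6 ± 1.95 RPPM (SD, n = 3) in BMPC.

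At Cd69, the strong regions closed partly in GCB alone and a flank opened in both activated cell types. The start region (chr6:129224949-129226201) read 57.2, 55.2 and 60.1 RPPM in C nB, 28.6 and 28.6 RPPM in C GCB and 57.5, 56.0 and 60.3 RPPM in C BMPC. The fall to GCB was -0.98 ± 0.12 on the log2 scale (SE, adjusted p = 3.9e-07, limma), just under the 2-fold limit that it passed with TMM scaling (-1.02) and on whole reads with edgeR and DESeq2 (-1.04 each), and BMPC differed from nB by 0.01 ± 0.11 (adjusted p = 0.95). The highest Cd69 region, 8.7 kb upstream (chr6:129234112-129235268), had the same order, with 77.9 ± 4.39 RPPM (SD, n = 3) in nB, 41.1 ± 2.15 RPPM (SD, n = 2) in GCB and 80.9 ± 2.30 RPPM (SD, n = 3) in BMPC. The flank lies 187 bp past the 3′ end of Cd69 (chr6:129216009-129217155) and read 4.39, 2.07 and 1.86 RPPM in C nB, 18.9 and 30.0 RPPM in C GCB and 26.7, 29.4 and 30.4 RPPM in C BMPC. Every C GCB and BMPC library was above every nB library, with log2 changes of 2.78 ± 0.32 (adjusted p = 9.8e-08, limma) and 3.04 ± 0.29 (adjusted p = 7.4e-10). Of 8 Cd69 regions, 1 was called higher in GCB than nB (12.5%, against 14.2% of all regions) and none lower. In BMPC 1 was higher and 1 lower than nB (12.5% each, against 18.0% and 20.1% of all regions).

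**Figure D4:**
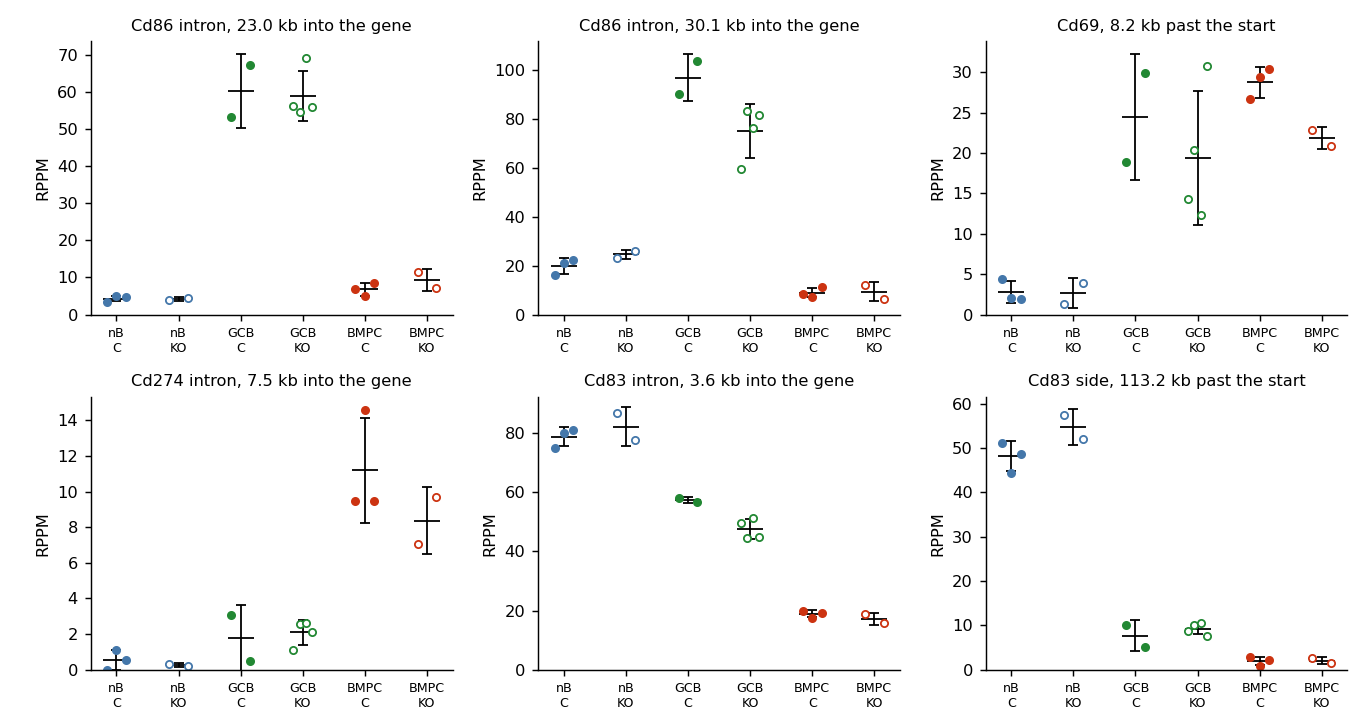
RPPM (vertical axis) in the 16 libraries at 6 regions away from the start, by cell type and genotype (horizontal axis; filled points C, open points KO, bar the mean, whiskers 1 SD). The Cd86 introns were highest in GCB, the Cd69 flank was low only in nB, the Cd274 intron was highest in BMPC, and the Cd83 regions fell from nB to BMPC.

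Because a wide region collects more reads than a narrow one, levels of different genes were set side by side per kb. In C nB, the start regions stood at 70.4 (Cd83), 52.4 (Cd86), 47.0 (Cd274), 45.9 (Cd69), 41.6 (Icosl), 4.72 (Cd80) and 1.31 (Pdcd1lg2) RPPM per kb. In C BMPC the order was Cd274 (64.3), Cd83 (54.0), Cd69 (46.2), Icosl (42.4), Cd80 (42.3), Pdcd1lg2 (21.2) and Cd86 (16), all in RPPM per kb. In C GCB, Cd274 (45.4) and Cd86 (40.6) led and Pdcd1lg2 (19.5) was last. Over the 16 libraries, which share their 3 cell types, the start regions of other genes most like each of these in log2(RPPM + 1) were Zfp9 for Cd80 (Pearson r = 0.982), Fam26f and Cxcr5 for Cd86 (0.983 and 0.979), Zbtb41 for Icosl (0.960) and Lbh for Cd274 (0.960). For Pdcd1lg2 it was Trpc1 (0.985), for Cd83 0610010F05Rik (0.967) and for Cd69 H2-D1 (0.987). These were the closest of 14132 start regions and are a description only.

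Dnmt3-deficient cells went through the same cell type comparisons in libraries of their own. In KO, 15 members were more accessible in GCB than nB (18.4% of all regions) and 12 less accessible (7.84%), a split that quantile normalization changed to 12 and 19 (11.6% and 11.3% of all regions) and that was 13 and 6 without nB KO replicate 1. From nB to BMPC, 14 gained (18.4%) and 23 lost accessibility (16.9%), and from GCB to BMPC 7 gained (12.1%) and 20 lost (19.9%), with 10 and 17 under quantile normalization (15.5% and 15.6%). Of the 23 members called from nB to GCB in C, 18 were also called in KO in the same direction (78.3% of the calls in C and 66.7% of the 27 in KO), and over all regions the shares were 76.9% and 66.5%. The corresponding figures from nB to BMPC were 33 members (82.5% of the calls in C and 89.2% in KO, against 79.9% and 86.3% over all regions), and from GCB to BMPC 24 (82.8% and 88.9%, against 77.7% and 73.9%). No member was called in opposite directions in C and KO. The change at the Pdcd1lg2 start from nB to GCB was 3.03 ± 0.22 in KO (SE, adjusted p = 1.5e-11, limma), at the Cd86 intron at 23 kb it was 3.54 ± 0.21 (adjusted p = 4.3e-13), and at the Cd83 region at 113 kb the change from nB to BMPC was -4.20 ± 0.30 (adjusted p = 8.7e-12).

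The comparison of KO with C within a cell type asked whether accessibility at these genes differed between the genotypes. The genotypes differ in the Cre allele as well as in Dnmt3a and Dnmt3b, and these cannot be told apart here. No member was called in nB, GCB or BMPC by limma, where 0.0%, 0.0317% and 0.104% of all regions were. The counts over all regions depend on which libraries are fitted. In GCB the 21 regions became 10 without nB C replicate 1. In BMPC the 60 higher and 9 lower regions became 10 and 1 without BMPC C replicate 2. They became 187 and 22 without GCB KO replicate 1. Leaving out a C GCB pool or a KO BMPC library leaves that group a single library, and those counts are not given. At an unadjusted p under 0.05 there were 0 members in nB (0.63% of all regions were higher and 1.04% lower), 4 higher (7.45% of all regions) and 8 lower (4.34%) in KO in GCB, and 5 higher (6.96%) and 3 lower (2.59%) in BMPC. The quasi-likelihood test of edgeR and DESeq2 on whole reads called none either. The likelihood ratio test of edgeR called 1 member in BMPC, higher in KO (2.01% of all regions), a Cd83 region 15.9 kb upstream (chr13:43864358-43864557). It read 3.51, 1.82 and 3.43 RPPM in C BMPC and 6.80 and 6.16 RPPM in KO BMPC. Its log2 change was 1.05 by that test (adjusted p = 0.0044) and 0.96 ± 0.35 by limma (adjusted p = 0.26), where it did not pass. C nB had 13.5 ± 1.23 RPPM (SD, n = 3) there, so both genotypes of BMPC lay below nB.

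Among the members, the smallest p for KO against C in BMPC belonged to an intron of Cd80 23.8 kb from the start (chr16:38482887-38484620). It read 15.5, 28.1 and 25.1 RPPM in C BMPC and 42.2 and 37.5 RPPM in KO BMPC, while all nB and GCB libraries lay between 14.1 and 28.3 RPPM. The log2 change was 0.81 ± 0.23 (SE, unadjusted p = 0.0014, adjusted p = 0.0945, limma), under both limits, with a 95% interval from 0.35 to 1.28, and its adjusted p ranged from 0.034 to 0.59 over the alternatives fitted with limma. On whole reads its log2 change was 0.75 with the quasi-likelihood test (adjusted p = 0.0016, edgeR), 0.74 with the likelihood ratio test (adjusted p = 0.0015, edgeR) and 0.75 with DESeq2 (adjusted p = 0.060). Both edgeR tests passed the limit on p and none the limit of 2-fold. The Cd80 region 1.5 kb before the GENCODE start went the other way, in BMPC with 7.53 ± 0.247 RPPM (SD, n = 3) for C against 4.37 ± 0.161 RPPM (SD, n = 2) for KO, a log2 change of -0.67 ± 0.24 (adjusted p = 0.26, limma) that was not called. Another intron, of Cd86 at 9.8 kb, measured 1.04, 0.182 and 0.623 RPPM in C and 1.94 and 1.49 RPPM in KO BMPC, a log2 change of 0.78 ± 0.29 (adjusted p = 0.28, limma). At this low level the size depended on the scale, with 1.55 for a pseudocount of 0.1 RPPM, 0.26 for 5 RPPM, 1.31 with edgeR and 1.37 with DESeq2, and the adjusted p stayed above 0.01 in each.

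None of the other genes passed the limits either. The Cd69 start read 57.5, 56.0 and 60.3 RPPM in C BMPC and 43.5 and 46.3 RPPM in KO BMPC, a log2 change of -0.36 ± 0.12 (SE, adjusted p = 0.22, limma) whose 95% interval from -0.62 to -0.11 lies within 2-fold. On whole reads its adjusted p was 0.0056 with the quasi-likelihood test of edgeR, 0.0011 with its likelihood ratio test and 0.015 with DESeq2, at log2 changes from -0.45 to -0.42. On the compared groups only, limma gave an adjusted p of 0.027. For the start of Pdcd1lg2 the values were 21.1, 24.6 and 19.0 RPPM in C and 16.2 and 15.3 RPPM in KO BMPC (-0.42 ± 0.23, adjusted p = 0.62, limma), and for the Icosl exon at 5.6 kb 2.21, 2.37 and 2.96 RPPM in C and 3.77 and 6.53 RPPM in KO BMPC (0.78 ± 0.41, adjusted p = 0.58, limma), which was 0.45 without KO BMPC replicate 2 and 0.42 with a pseudocount of 5 RPPM. At Cd274 the smallest p was at the intron at 1.2 kb (-0.26 ± 0.24, adjusted p = 0.92, limma). In GCB, the smallest p among members was that of the Cd69 region 8.7 kb upstream, at 39.6 and 42.6 RPPM in C and 30.8, 26.7, 35.9 and 27.3 RPPM in KO, a log2 change of -0.44 ± 0.12 (adjusted p = 0.11, limma). Tests of whether the genotype effect differed between BMPC and nB, between BMPC and GCB, and between GCB and nB called no member and, by limma with all groups, no region (0.0% each). Other fits called no member either, but called regions elsewhere. For BMPC against nB they called 35 up and 14 down with the quasi-likelihood test of edgeR, 129 and 48 with its likelihood ratio test, 21 and 7 with DESeq2 and 21 and 2 with limma on the compared groups only. For BMPC against GCB the quasi-likelihood test and DESeq2 each called 18 up and 1 down. At an unadjusted p under 0.05 these interactions gave, by limma, 4 members up and 4 down (3.95% and 1.30% of all regions), 7 up and 4 down (4.63% and 3.70%), and 1 up and 4 down (4.15% and 2.06%). With 2 to 4 libraries per group, intervals this wide leave changes under 2-fold undecided at most members.

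**Figure D5:**
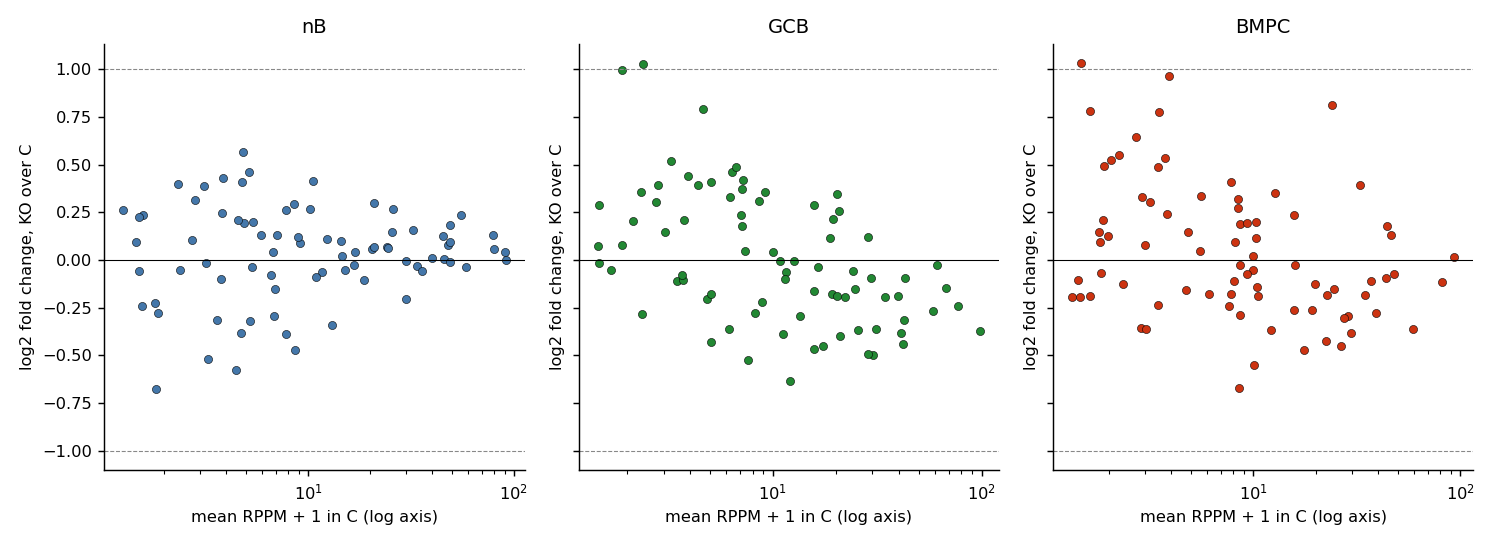
Log2 fold change of KO over C (vertical axis) against the mean RPPM + 1 in C (horizontal axis, log scale) for the 79 regions in nB, GCB and BMPC. The dashed lines mark 2-fold, and no region passed the limits for a call in limma, including the points above the upper line in GCB and BMPC.

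Of the members above 10 RPPM (mean of the 6 groups), 27 of 35 were lower in KO in GCB (77.1%), with a median log2 change of -0.15. Over all regions above that level these were 57.8% and -0.04. Members at 10 RPPM or less had 19 of 44 below 0 in GCB (43.2% against 39.9%). Above 10 RPPM, 12 of 35 were lower in KO in nB (34.3% against 48.1%) and 21 in BMPC (60.0% against 55.6%). Regions read in the same libraries are not replicates, and these counts are a description only. The KO pool F1 was the shallowest library (907959 reads), and the part of depth in the GCB counts was not tested.

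Related genes were listed for comparison. Among 16 other genes with a role in costimulation, of the B7, CD28 and TNF families and, with Slamf1 and Cd48, the SLAM family, 13 of 102 regions were more accessible in C GCB than C nB (12.7%, against 14.2% of all regions) and 7 less (6.86% against 8.47%). From C nB to C BMPC 24 were more (23.5% against 18.0%) and 32 less accessible (31.4% against 20.1%), with a median log2 change of -0.04 from nB to BMPC. Of the receptors that the members bind, named after their values were seen, Ctla4 had 10 of 14 regions higher in BMPC than nB and none lower, and Cd28 had 4 of 5 higher and none lower. Icos had 3 of 7 higher and 1 lower, and Pdcd1 (PD-1) had 3 of 4 lower and none higher. Regions of Btla (8 of 12), an inhibitory receptor, of Slamf1 (6 of 8) and of Tnfsf18 (5 of 6) were lower. Among 10 other activation surface genes, 14 of 79 regions were more accessible in GCB than nB (17.7% against 14.2%) and 13 less (16.5% against 8.47%). In BMPC 15 were more (19.0% against 18.0%) and 22 less accessible than in nB (27.8% against 20.1%), with a median log2 change of -0.46. Of the regions of Cd2, an adhesion molecule of lymphocytes, 10 of 15 were lower in BMPC than nB. Between KO and C, the region called in these lists was 1 of the 102, the start region of Slamf1 (chr1:173696905-173697609), an adhesion receptor of lymphocytes, which in BMPC had 7.20 ± 0.451 RPPM (SD, n = 3) for C against 2.58 ± 0.478 RPPM (SD, n = 2) for KO, with a log2 change of -1.20 ± 0.21 (SE, adjusted p = 0.0052, limma). It was singled out after its value was seen. The share called in BMPC was 0.980% of the 102 regions, against 0.104% of all regions. Without either KO BMPC library this call was lost, though that group then has a single library.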

How the data were processed

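ATAC-seq values of 16 libraries were used, in 6 groups taken from the labels. The authors aligned reads to mm9 with Bowtie (version 1.1.1 in the submitters' processing notes), called peaks in each sample with MACS2 2.1.0.20140616, merged them into a union of 66177 regions and deposited reads scaled to 1000000 reads in regions (RPM, here RPPM). Whole reads were recovered for 100% of values (tolerance 1e-06). The deposited columns of the authors' own comparisons (log2 fold change, log2 CPM, a test score, p-value and FDR) were not used.

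The members and lists were chosen with earlier results of these data known. The main test was limma 3.58.1 (R 4.3.3), fitted to log2(RPPM + 1) with 6 group means together, a mean trend and no filter. P-values were adjusted by Benjamini-Hochberg across every region, and calls required 0.01 or less and 2-fold or more. On whole reads, edgeR 4.0.16 and DESeq2 1.42.0 were alternatives, with other pseudocounts, filters, scalings and left-out libraries. The regions named for each gene were its start region, its highest region, those of lowest p in the comparisons of C nB with GCB or BMPC, that of lowest p between KO and C BMPC, and any called between KO and C; the 3 start regions most like it by Pearson r over the libraries were also found, and the first 1 or 2 are named. Further regions were named after their values were seen. The limma fit was tested on simulated data; the edgeR and DESeq2 fits were not. Sequences came from NCBIM37 and gene starts from GENCODE. Some genes and allele details are not reported here, and marker sums and list counts leave those genes out.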

Additional observations from a re-analysis of the deposited data

Results flagged for a closer look

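In the 4 KO GCB pools, 2 of 25 named regions had a pool standing apart from the others, where chance gives about 1 in 20 groups. At the Cd86 intron 23 kb from the start the pools read 56.2, 54.7, 69.3 and 55.9 RPPM (51, 86, 158 and 80 reads), and the gap from the highest pool to its neighbour was 0.901 of the range, above the 95% limit of Dixon's test for 4 samples. At the Cd274 start region they read 16.5, 26.1, 25.9 and 25.9 RPPM (15, 41, 59 and 37 reads), with a gap of 0.976 of the range below the others. That lowest value came from the shallowest library (907959 reads), and the part of depth in it was not tested.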

How the results depend on the processing

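Counts of members called changed by over 1.5 times with a pseudocount of 5 RPPM, which gave 15 from nB to GCB, 26 from nB to BMPC and 13 from GCB to BMPC in C, and 16, 22 and 12 in KO. For KO against C in BMPC, 1 was called by the likelihood ratio test of edgeR. The cause was not tested. Leaving out each library gave 17 to 26, 36 to 41 and 24 to 30 calls in C, 19 to 28, 30 to 39 and 22 to 28 in KO, and 0 to 0 for KO against C and the interactions. Of the other count alternatives, 306 stayed within 1.5 times. Over all regions, KO against C in BMPC gave 60 higher and 9 lower by limma, 962 and 239 by the quasi-likelihood test of edgeR and 1329 and 348 by its likelihood ratio test. Quantile normalization moved the median of all regions by -0.11 and 0.14 (nB to GCB and GCB to BMPC in C) and by -0.19 and 0.12 in KO. Among named regions, 706 values kept direction and call, and those that turned sign were near 0: the Icosl start from nB to BMPC (-0.045 with quantile normalization, -0.0066 to 0.080 with each library left out, below 0 without nB C replicate 1 or BMPC C replicate 3), the Cd274 start from nB to GCB (0.16 with quantile normalization, -0.12 to 0.024 with each library left out, above 0 without GCB C replicate 2) and the Cd69 start from nB to BMPC (-0.056 with quantile normalization, -0.019 to 0.042 with each library left out, below 0 without nB C replicate 2 or BMPC C replicate 3). The GCB pools F2 and M1 share only a pool name across genotypes (correlation of deviations 0.036 and 0.064), and a replicate block over them called 0 members. Counts of 3 reads or fewer limit GCB regions below 3.30 RPPM.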
